A study of Mus musculus with 12 samples.

Results

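The pi, theta, kappa, zeta and omega glutathione S-transferases and a pair of membrane-bound transferases were followed in mouse liver under inhibition of cholesterol synthesis. The set was fixed by name, as the count-table rows of Gstp1, Gstp2, Gstt1, Gstt2, Gstt3, Gstk1, Gstz1, Gsto1, Mgst1 and Mgst3, which are 10 of 24062 genes, and 9 of them were among the 12481 genes tested. Liver RNA-seq libraries from 12 female C57BL/6J mice were used, 6 from mice on a control diet and 6 from mice on the matched diet with BIBB-515 at 55 mg/kg, an inhibitor of the cholesterol synthesis enzyme lanosterol synthase. The mice were 6 weeks old on arrival and had 2 weeks to acclimate, both groups ate the control diet for the last 3 days before dosing began, and feeding lasted 10 days. Of the 11 mice per diet in the study, the control libraries carry the numbers 1 to 6 and the BIBB-515 libraries the numbers 6 to 11 and the labels do not say which mice shared a cage of 3 or 4. Of the 9 tested genes, 5 were higher with BIBB-515 and none was lower, with Gstt3 rising 2.28-fold, Gstp1 1.70-fold, Mgst3 1.48-fold, Gstt2 1.45-fold and Gsto1 1.42-fold.

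Glutathione S-transferases join the thiol of the tripeptide glutathione to reactive, electron-poor compounds, which makes these easier to carry out of the cell, and some members also reduce peroxides or isomerise metabolites. Liver is rich in both glutathione and these enzymes. Classes are named by Greek letters, and the cytosolic ones, among them pi, theta, zeta and omega, share one fold. The kappa enzyme, not counted among these, sits in mitochondria and peroxisomes, and the microsomal transferases are membrane proteins of a separate family.

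The gene counts of a mouse summed to 22764819 at the lowest and 31058370 at the highest, and any pair of mice of a group differed by more than sampling noise. Values are CPM, a gene's counts relative to the size of its library, scaled for library composition with the TMM method, and log2 fold changes with their standard errors (SE), 95% intervals and false discovery rates (FDR, adjusted over all tested genes) come from the edgeR quasi-likelihood fit. An FDR under 0.05 counted as a change. Of all 12481 tested genes 13.5% passed it, 888 (7.11%) as higher and 793 as lower. Intervals and tests speak for the spread between these mice. In whole liver, fewer cells of a type and less RNA per cell cannot be told apart. Of 7 hepatocyte markers 3 fell, Ttr and Alb without overlap between the diets and Serpina1c with overlap. Apoa1, Hnf4a, Tat and Cps1 did not pass and overlapped between the diets. The summed marker level was 141473 to 157032 CPM in control mice and 105285 to 121563 CPM in BIBB-515 mice, without overlap. Most of that sum is Alb, with a mean of 120094 CPM in control mice and 90923 CPM with BIBB-515. No marker of bile duct (5 tested), Kupffer cell and leukocyte (7), endothelium (5), fat (2) or red cell precursors (1) passed the threshold. Of 6 stellate cell markers 2 fell, Lrat and Dcn, both with overlap between the diets. The fat marker Lep and the haemoglobin genes Hbb-bs and Hba-a1 had no counts in any mouse. Whether cell composition had a part in the results was not tested.

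Gstp1 and Gstp2 are neighbouring copies of one pi gene, so what can be counted for each depends on where their sequences differ. Over the exons that are wholly coding in both, 443 bases in all, the copies differ at 12 bases, an identity of 97.29%. Exon 4 and exon 6 are identical, and exon 5 carries 6 of the 12 differences. Exon 5 is shown because it is the exon with the most counts of Gstp1. It lies on the minus strand of mm10 at chr19:4036688-4036791 in Gstp1 and at chr19:4040982-4041085 in Gstp2. The sequences are from GENCODE transcripts on the same build, and capitals mark the bases that differ.
Gstp1 exon 5: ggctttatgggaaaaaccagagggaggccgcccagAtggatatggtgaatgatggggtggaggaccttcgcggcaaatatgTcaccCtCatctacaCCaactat
Gstp2 exon 5: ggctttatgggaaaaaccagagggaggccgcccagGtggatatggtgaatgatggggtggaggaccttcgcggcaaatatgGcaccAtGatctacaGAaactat

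The 250 bases before the transcription start are given for both pi genes, which share a block of promoter sequence but differ widely in level, for Gstt3, which rose the most, and for Mgst1, the most highly expressed member. They are RefSeq sequences on GRCm38.p6, read in the direction of the gene, from chr19:4037913-4038162 (minus strand) for Gstp1, chr19:4042222-4042471 (minus strand) for Gstp2, chr10:75781423-75781672 (minus strand) for Gstt3 and chr6:138140277-138140526 (plus strand) for Mgst1. Capitals mark TGAGTCA, the letters bound by AP-1 factors, and in Mgst1 a match to the antioxidant response element TGACNNNGC, which lies on the opposite strand.
Gstp1 promoter: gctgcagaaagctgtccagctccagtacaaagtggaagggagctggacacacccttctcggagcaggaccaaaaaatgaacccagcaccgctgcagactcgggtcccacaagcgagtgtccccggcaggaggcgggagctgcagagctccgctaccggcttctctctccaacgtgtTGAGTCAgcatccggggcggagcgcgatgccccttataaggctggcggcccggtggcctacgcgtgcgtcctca
Gstp2 promoter: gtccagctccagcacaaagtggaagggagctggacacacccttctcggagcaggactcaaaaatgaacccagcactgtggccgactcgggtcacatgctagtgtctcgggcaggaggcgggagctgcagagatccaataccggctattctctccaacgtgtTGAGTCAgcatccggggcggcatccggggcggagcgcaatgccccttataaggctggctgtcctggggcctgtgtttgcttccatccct
Gstt3 promoter: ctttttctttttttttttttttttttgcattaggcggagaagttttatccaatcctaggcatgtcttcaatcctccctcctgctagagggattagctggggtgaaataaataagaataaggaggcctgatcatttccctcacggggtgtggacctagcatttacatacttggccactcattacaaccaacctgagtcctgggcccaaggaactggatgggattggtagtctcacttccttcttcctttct
Mgst1 promoter: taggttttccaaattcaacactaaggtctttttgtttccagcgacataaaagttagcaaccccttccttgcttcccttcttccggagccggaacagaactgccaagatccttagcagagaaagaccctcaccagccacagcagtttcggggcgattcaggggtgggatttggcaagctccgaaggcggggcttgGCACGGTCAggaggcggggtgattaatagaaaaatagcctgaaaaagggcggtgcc

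RefSeq promoter windows were matched for 9 of the 10 genes, 12 windows in all since some genes have several starts, and only the bases before the start were searched, on both strands. The antioxidant response element, which the factor NRF2 binds, was searched only in the form TGACNNNGC. That form was found in 1 window of the members, the Mgst1 window above, against 10.2% of 32851 windows of all genes. In both pi promoters the AP-1 letters are followed by gc, a stretch that departs from this form only in the G after TGA. Looser forms of the element were not searched. The nuclear receptor half-site AGGTCA was found only in the window of Gstk1, against 14% of all windows. Its direct repeats spaced by 3 or 4 bases, to which the drug-sensing receptors CAR and PXR are known to bind, were in none of the members' windows and in 0.00609% and 0.0152% of all windows. Exact repeats this rare would be absent from nearly any set so small, so their absence here says nothing about these receptors. The AP-1 letters were looked for after the promoters had been read. They end 67 bases before the start of Gstp1 and 82 bases before that of Gstp2, and are present in 4.46% of all windows. The Gstt3 windows held none of these motifs. For Gstt1 the RefSeq start lies inside the gene as the count tables define it.

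**Figure D1:**
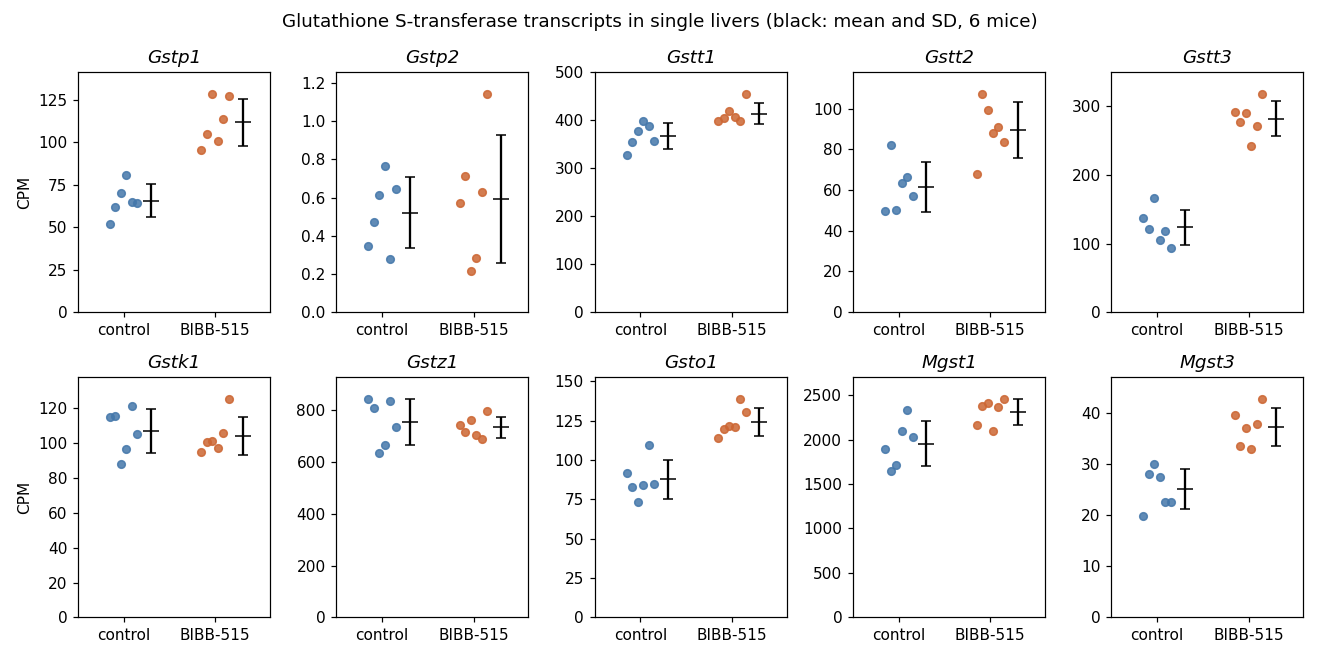
CPM of each transferase in each liver, one panel per gene with the axis starting at 0, 6 control mice in blue and 6 BIBB-515 mice in orange, with the mean and SD in black. Gstp1, Gstt3, Gsto1 and Mgst3 show no overlap between the diets, and Gstk1, Gstz1 and Gstp2 overlap broadly.

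The pi gene Gstp1, whose enzyme is known for conjugating many electrophiles and for binding the stress kinase JNK, was higher in every BIBB-515 mouse. Its level was 51.7 CPM at the lowest, 64.6 at the median and 80.7 at the highest in control mice, and 95.5, 109.1 and 128.5 CPM with BIBB-515. The lowest treated mouse lay above the highest control mouse. The log2 fold change was 0.77 (SE 0.10, 95% interval 0.55 to 0.98, FDR = 0.000183), and the two-sided exact permutation test gave p = 0.00216, the smallest that 6 against 6 mice allow.

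Gstp2 was close to silent in these tables. It ranged from 0.280 to 0.764 CPM (median 0.542) in control mice and from 0.214 to 1.14 CPM (median 0.599) in BIBB-515 mice, which are 6 to 28 counts per mouse. Every control mouse lay within the treated range, and the gene did not pass the filter of 1 CPM in 2 mice. The exact permutation test gave p = 0.898, a change was not detectable at this depth, and a fit without the filter gave a log2 fold change of 0.19 with an SE of 0.35 (FDR = 0.800).

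The counts of the pi genes were set by what tells the copies apart, since reads that map to several places were not counted. Of the 50-base words of Gstp1, 68.6% also occur in transcripts of Gstp2 or of the pseudogene Gstp-ps, and of Gstp2, 76.8% occur in those of Gstp1 or the pseudogene. The length of the reads is not given in the sources used here, so the words only approximate which reads can tell the copies apart. In the last exon of Gstp1, which takes 251 of its 744 exon bases, no base lies in a word that Gstp1 alone has, and 1 to 4 counts per control mouse and 2 to 11 per BIBB-515 mouse fell on it. Exon 5, every base of which lies in such a word, held 813 to 1269 counts in control mice and 1444 to 2141 in BIBB-515 mice.

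The rise of Gstp1 was present along the gene, but a read that reached several exons was counted on each of them. The exon values are therefore not separate measurements. On exon 5 the log2 ratio of the mean CPM was 0.69, on exon 1 0.80 and on exon 2 0.90, exons of which every base lies in a word that Gstp1 alone has. Over the 6 exons with a median of at least 100 counts in each group it ran from 0.66 to 0.91. On Gstp2 no exon exceeded 20 counts in any mouse. Reads that map to both copies were counted for neither, so the values of both genes cover only what tells them apart.

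**Figure D2:**
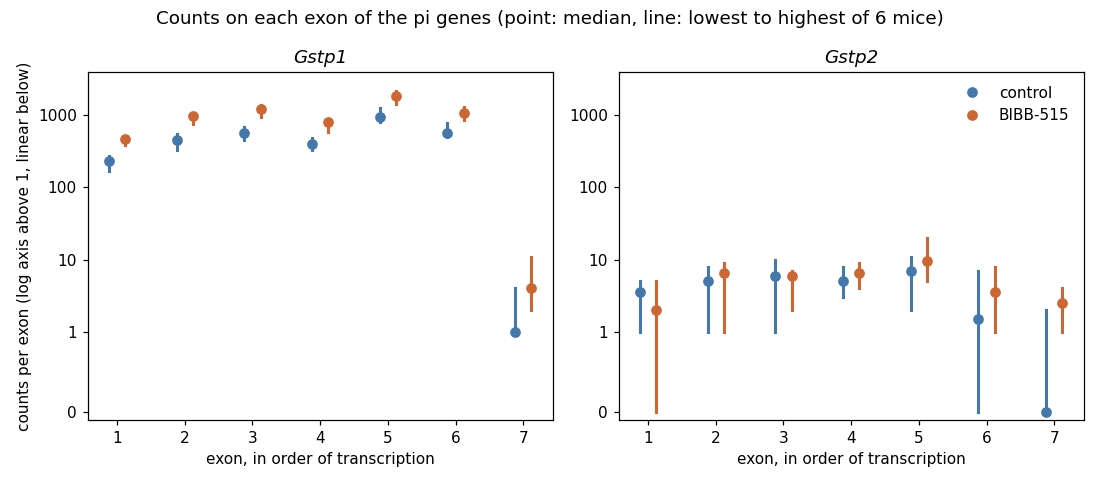
Counts on each exon of Gstp1 (left) and Gstp2 (right) in order of transcription, on an axis that is logarithmic above 1, with the median as a point and the lowest to highest of 6 mice as a line (control in blue, BIBB-515 in orange). Exons 1 to 6 of Gstp1 hold 170 to 2141 counts and are higher with BIBB-515, exon 7 holds at most 11, and no exon of Gstp2 exceeds 20.

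The theta genes lie side by side on chromosome 10 and responded unequally. Theta enzymes are known for acting on small halogenated compounds. Gstt3 rose the most of all members. It ranged from 93.3 to 165.8 CPM (median 120.0) in control mice and from 243.1 to 318.6 CPM (median 283.7) with BIBB-515, so the groups stood well apart. The log2 fold change was 1.19 (SE 0.12, 95% interval 0.94 to 1.44, FDR = 1.3e-05), a fold of 2.28 with an interval of 1.92 to 2.71, and the gene was number 35 of all tested genes by p.

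Gstt2 also rose, by less and with more spread. Its level was 49.9 to 82.2 CPM (median 60.2) in control mice and 67.7 to 107.3 CPM (median 89.3) with BIBB-515. In 5 of 6 treated mice it exceeded every control mouse, and 1 control mouse, replicate 2, lay above the lowest treated one. The log2 fold change was 0.54 (SE 0.13, 95% interval 0.26 to 0.81, FDR = 0.0135), with p = 0.00433 in the exact permutation test.

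Gstt1, the theta gene with the highest level, did not pass the threshold. It ranged from 326.3 to 398.0 CPM (median 366.7) in control mice and from 397.7 to 454.8 CPM (median 405.5) with BIBB-515. The groups met at the edge, where the highest control mouse and the lowest treated mouse differed by less than 1 CPM. The log2 fold change was 0.17 (SE 0.07, 95% interval 0.03 to 0.32, FDR = 0.0998), and the exact permutation test of the gene alone gave p = 0.00433. A small rise is inside the interval, and a rise of the size of Gstt3 is outside it.

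The difference between theta genes was tested as the log2 ratio of their CPM within each mouse, which does not depend on the scaling of the libraries. The ratio of Gstt3 to Gstt1 lay between -1.93 and -1.19 in control mice and between -0.74 and -0.44 with BIBB-515, without overlap. It was higher by 1.03 with BIBB-515 (exact permutation test, adjusted p = 0.0108 over the 5 pairs of members compared). Gstt2 over Gstt1 was higher by 0.37 and Gstt2 over Gstt3 was different by -0.66, and in both the adjusted p of the exact permutation test was 0.0541. The first passed the threshold without control replicate 2 (difference 0.47) or BIBB-515 replicate 11 (0.42), and the second without control replicate 1 (-0.75), control replicate 3 (-0.80) or BIBB-515 replicate 11 (-0.61). Of the summed theta level per kilobase of exon, Gstt3 made up 11.5 to 18.1% in control mice and 22.1 to 26.5% with BIBB-515, while Gstt1 went from 73.2 to 79.0% to a range of 63.2 to 66.9%.

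**Figure D3:**
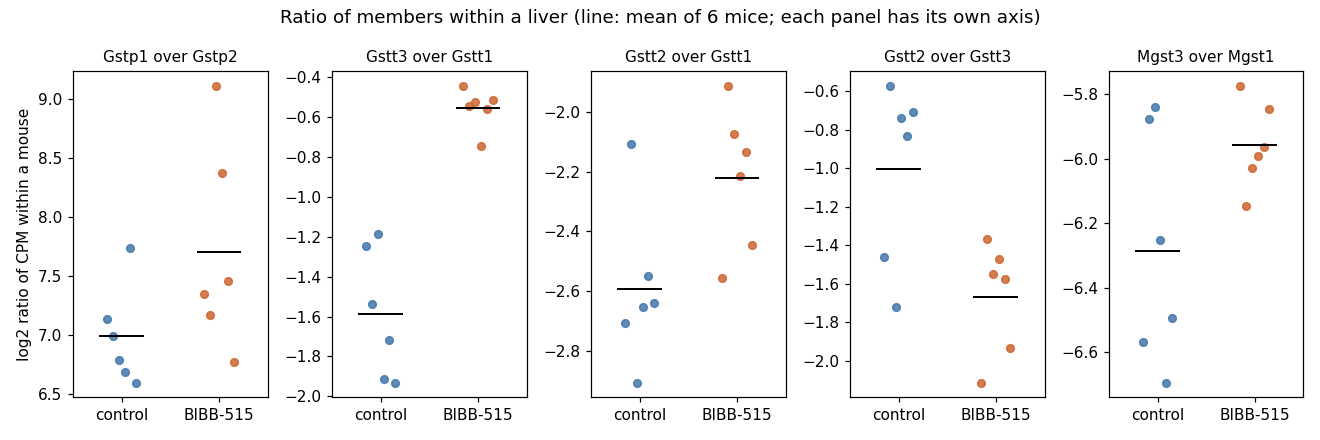
Log2 ratio of the CPM of paired members within each liver, one panel per pair with its own axis, 6 control mice in blue, 6 BIBB-515 mice in orange and the mean as a line. Gstt3 over Gstt1 separates the diets, and the other 4 pairs overlap.

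Counts along the theta genes moved alike from exon to exon, where again a read that reached several exons was counted on each. Over the 5 exons of Gstt3 the log2 ratio of the mean CPM ran from 1.16 to 1.28, over the 5 of Gstt2 from 0.44 to 0.60 and over the 5 of Gstt1 from 0.14 to 0.25. The theta genes had no exon overlap with another gene of the tables. No 50-base word of Gstt1 or Gstt2 occurred in transcripts of another gene, while 26.1% of those of Gstt3 also occur in Gm20441, a transcript model at the same place. Of 7 tested neighbours of the theta cluster, 1 rose, Mif, which encodes a cytokine-like tautomerase, from 77.4 ± 11.3 to 109.8 ± 8.02 CPM (SD, n = 6 each, log2 fold change 0.50, FDR = 0.00215). Around the pi genes, 1 of 7 tested neighbours rose, Nudt8, by 0.32 on the log2 scale (FDR = 0.0139). Each of these counts is 14.3% of its list, beside 13.5% of all tested genes called in either direction and 7.11% called higher. Lists this short do not set the neighbours apart from all genes.

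Gsto1, the omega enzyme, which reduces dehydroascorbate and takes glutathione off proteins, was higher with BIBB-515. It ranged from 73.1 to 109.7 CPM (median 84.4) in control mice and from 113.9 to 138.8 CPM (median 121.1) in treated mice. The groups did not overlap, although control replicate 5 came close to the treated range. On the log2 scale Gsto1 differed by 0.50 (SE 0.09, 95% interval 0.32 to 0.69, FDR = 0.00152), with p = 0.00216 in the exact permutation test. Over 5 exons with a median of at least 100 counts in each group, the log2 ratio ran from 0.44 to 0.65.

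Gstk1 and Gstz1 showed no change that these data could resolve. Gstk1, the kappa enzyme, was at 88.0 to 121.4 CPM (median 110.1) in control mice and 95.1 to 125.3 CPM (median 100.9) with BIBB-515. The ranges lay over each other, and the log2 fold change was -0.04 (95% interval -0.22 to 0.15, FDR = 0.814). Gstz1 isomerises maleylacetoacetate in the breakdown of tyrosine. Its range was 635.2 to 843.7 CPM (median 772.0) in control mice and 689.2 to 797.6 CPM (median 729.6) with BIBB-515, the treated range inside the control range. Its log2 fold change was -0.04 (95% interval -0.22 to 0.14, FDR = 0.804). None of the 5 tested tyrosine breakdown genes, Gstz1 among them, passed the threshold. The first exons of Gstz1 share 476 bases with Pomt2. The tables of primary alignments, in which reads overlapping several genes were counted for each gene, differed by at most 0.977% for Gstz1.

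Mgst1, an enzyme of the endoplasmic reticulum and outer mitochondrial membrane with transferase and peroxidase activity, was the most abundant member. It ranged from 1650 to 2330 CPM (median 1958) in control mice and from 2097 to 2456 CPM (median 2368) with BIBB-515. In 4 of 6 treated mice it exceeded every control mouse, and 2 control mice, replicates 4 and 5, lay above the lowest treated one. The log2 fold change was 0.24 (SE 0.09, 95% interval 0.05 to 0.43), which did not pass the threshold (FDR = 0.0849), with p = 0.0130 in the exact permutation test. Without control replicate 5 the FDR was 0.0282.

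Mgst3, a membrane transferase that also makes leukotriene C4, was the least abundant tested member and rose. It ranged from 19.9 to 30.0 CPM (median 25.0) in control mice and from 32.9 to 42.7 CPM (median 37.4) with BIBB-515. The groups did not overlap. On the log2 scale Mgst3 differed by 0.57 (SE 0.10, 95% interval 0.36 to 0.78, FDR = 0.00181), with p = 0.00216 in the exact permutation test. The log2 ratio of Mgst3 to Mgst1 within a mouse was higher by 0.33 with BIBB-515, which did not pass the threshold (exact permutation test, adjusted p = 0.0947) except without control replicate 3, where the difference was 0.42. The log2 ratio of Gstp1 to Gstp2 was higher by 0.72 (exact permutation test, adjusted p = 0.0996), on very few Gstp2 counts. It passed without BIBB-515 replicate 11 at 0.91. In the tables of primary alignments it was 0.47 (exact permutation test, adjusted p = 0.158). Gstp2 counts there differed by up to 83.3% in a mouse, 11 against 6 in BIBB-515 replicate 8. Gstp1 counts differed by at most 0.188%, so these tables were no check on reads that the copies share.

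**Figure D4:**
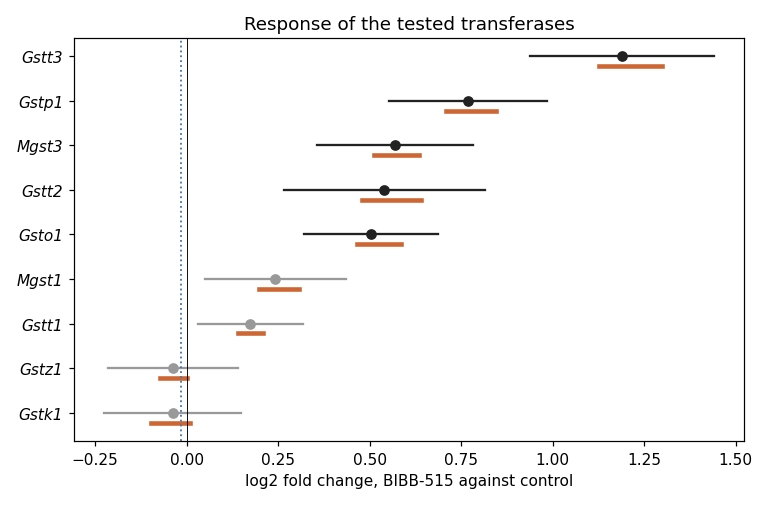
Log2 fold change of the 9 tested transferases, BIBB-515 against control, as points with 95% intervals, black where the FDR was under 0.05 and grey elsewhere, with the range when each mouse was left out in turn as an orange bar and the median of all tested genes (-0.01) as a dotted line. The 5 genes that passed lie between 0.50 and 1.19, and the intervals of Gstk1 and Gstz1 cover 0.

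Of the 9 tested members, 5 passed as higher and 0 as lower, beside 7.11% of all tested genes that passed as higher. The median log2 fold change of the 9 was 0.50, and that of all tested genes -0.01. In 4 members, Gstp1, Gstt3, Gsto1 and Mgst3, every treated mouse lay above every control mouse, a pattern found in 4.35% of all tested genes. The members were chosen with earlier results of these data known, so these shares are not an independent comparison. Each of the 5 called genes passed under all 8 alternative analyses and with any 1 mouse left out.

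Compared per kilobase of exon, the members spanned more than 3 orders of magnitude. In control mice the mean levels in CPM per kilobase were 2071 for Mgst1, 358 for Gstz1, 353.6 for Gstt1, 115 for Gstk1, 88.1 for Gstp1, 75.5 for Gsto1, 66.1 for Gstt3, 44.9 for Gstt2, 39.5 for Mgst3 and 0.692 for Gstp2. Mgst1 stood above every other member and Gstp2 below in every mouse. Gstz1 and Gstt1 overlapped each other and lay above the rest, and from Gstk1 down to Mgst3 each member overlapped the next in the order. With BIBB-515 the order was Mgst1 (2450), Gstt1 (399), Gstz1 (349), Gstt3 (150.6), Gstp1 (150.1), Gstk1 (112), Gsto1 (107), Gstt2 (65.3), Mgst3 (58.6) and Gstp2 (0.787). By these exon lengths Gstt1 now lay above Gstz1 in every mouse, and Gstt3 moved from the seventh to the fourth place, level with Gstp1.

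Mgst1 alone made up 59.8 to 66.8% of the summed level per kilobase in control mice and 62.8 to 64.9% with BIBB-515. The sum over the 10 members was 2912 to 3702 CPM per kilobase in control mice and 3540 to 4139 with BIBB-515, overlapping between the diets. The level of Gstp1 per kilobase counts its last exon, on which almost no reads were counted. Over the other 493 bases its mean was 133 in control mice and 226 with BIBB-515. By the means, that would place it above Gstk1 in the first group and above Gstt3 in the second. In control mice its range of 104.9 to 163.8 overlapped that of Gstk1, 94.7 to 130.5. Those bases still include exons 3, 4 and 6, which lie only partly in words that Gstp1 alone has, so its place is not settled. Exon 1 of Gstz1, with 344 bases, also held few counts, 9 to 27 in control mice and 20 to 30 with BIBB-515. The level was recomputed only for Gstp1, so the order of close members, such as Gstt1 and Gstz1, depends on the exon lengths used.

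**Figure D5:**
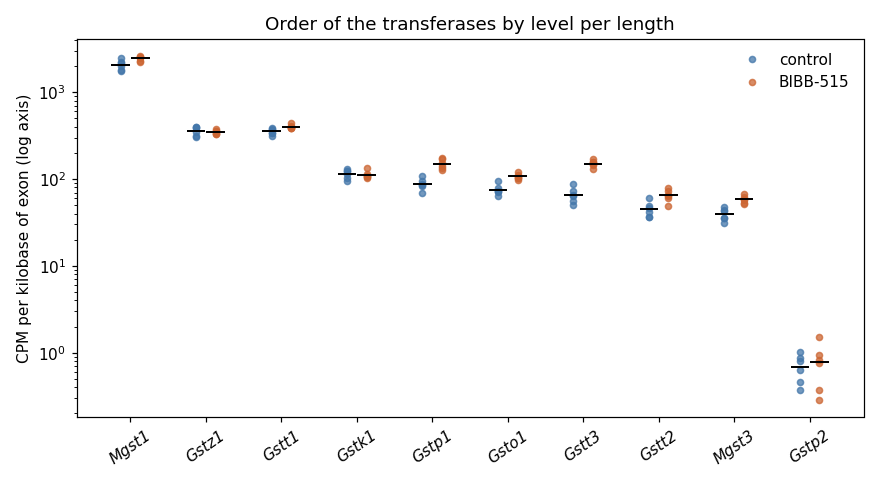
Level of each member in CPM per kilobase of exon on a logarithmic axis, in the order of the control means, with a point per mouse (control in blue, BIBB-515 in orange) and the mean as a line. Mgst1 lies at 1750 to 2605, Gstp2 at 0.285 to 1.52, and the other members between 31.3 and 438.6.

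The alpha and mu transferases and the other members of the family were counted beside these changes. Of 13 tested, 10 rose and 0 fell, beside 7.11% of all tested genes called higher. The median log2 fold change of the 13 was 0.95. The summed level, over all 16 genes of the list that were counted, was 2152 to 3181 CPM in control mice and 8925 to 12658 CPM with BIBB-515. Gstm1 went from 1153 ± 326 to 5347 ± 696 CPM and Gstm4 from 60.8 ± 10.5 to 139 ± 12.0 CPM (SD, n = 6 each). Gstm3 rose by 5.72 on the log2 scale. Gsta1, one of the 10, was at 0.0774 to 0.398 CPM in control mice and 12.4 to 26.2 CPM with BIBB-515, so it passed the filter through the treated mice alone. Sequence that these genes share with each other was not measured here.

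Other steps of glutathione use were mixed, and their counts stand beside 13.5% of all tested genes called in either direction. Of 9 tested reduction and peroxidase genes, 4 rose and 1 fell. Among them glutathione reductase, Gsr, which restores oxidised glutathione, rose by 0.83 on the log2 scale (FDR = 1.37e-06), and Gpx4, which reduces lipid peroxides, by 0.78 (FDR = 1.51e-05). Of 6 genes of glutathione synthesis and cysteine supply, Cth rose by 0.58 (FDR = 0.0326), Cbs fell by 0.45 (FDR = 0.0118), and Gclc and Gclm, the subunits of the enzyme that sets the rate of synthesis, did not pass, at 0.18 (FDR = 0.325) and 0.22 (FDR = 0.163). Of 10 genes that break down glutathione or process its conjugates, Ggt6 rose by 0.37 and Chac2 fell by 0.53.

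For the next lists, the share of all tested genes called higher was 7.11%. Of 7 exporters of conjugates, 3 rose and 0 fell. Abcc3, which moves conjugates from the hepatocyte into blood, rose from 214 ± 69.2 to 694 ± 91.8 CPM (SD, n = 6 each, FDR = 5.39e-05), and Abcg2 and Abcc4 rose by 0.40 and 0.87 on the log2 scale. Of 9 tested classic targets of NRF2, 3 rose, Gsr, Srxn1 by 0.65 and Nqo1 by 0.74, and 0 fell. Of 8 classic targets of the receptors CAR and PXR, 7 rose and 0 fell, with a median log2 fold change of 2.47, and these included Ces2a by 3.53, Cyp3a11 by 3.24 and Cyp2c55 by 5.98. The lists share genes, among them Gsr and Abcc3, which rose, and Gclc and Gclm, which did not pass, each standing in a pair of lists. Whether any of these regulators had a part in the changes of the transferases was not tested.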

How the data were processed

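Liver RNA-seq of 12 mice was analysed, grouped by the diet in the labels, which give no batch. The authors deposited whole-number counts per gene and per exon, made with featureCounts (Subread 1.6.3) on mm10 without a strand option and without reads mapping to several places. Reads overlapping several genes were dropped from the gene tables and counted for each exon in the exon tables. The submitters' processing notes also name STAR 2.5.3a. Depth per mouse is given above, and read length and strandedness of the kit are not given in the sources used here. Tables of counts per transcript were not used.

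The gene filter asked for 1 CPM or more in 2 mice. Counts that passed were TMM-normalized, a robust quasi-likelihood model of diet was fitted with edgeR 4.0.16 (R 4.3.3), and p-values were adjusted by Benjamini-Hochberg. Single values were compared with two-sided exact permutation tests on log2 CPM (prior count 0.5). Intervals are at 95%. Members and gene lists were chosen with earlier results of these data known. All members are named, and of each list at most the 4 genes with the lowest p, plus cell markers and gene neighbours.

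Alternatives were DESeq2 1.42.0, limma-voom (limma 3.58.1), upper-quartile normalization, no filter, 1 CPM in at least 6 mice, tables of primary alignments, 1 surrogate variable (sva 3.50.0), each mouse left out and, added after seeing the data, a fit without robust estimation and a level of Gstp1 without its last exon.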

Additional observations from a re-analysis of the deposited data

Results flagged for a closer look

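Among 32 sets of 6 mice (member levels, log2 ratios and total counts by diet) examined for a mouse far from the rest, 2 had one, where chance would give 1.6. For Gstt1, BIBB-515 mouse 11 was the highest, and its gap to the next mouse was 0.640 of the range of its group. For Gstk1 the same mouse was the highest, with a gap of 0.649 of the range. Both genes were short of the FDR threshold with and without this mouse.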

How the results depend on the processing

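Gstp1, Gstt2, Gstt3, Gsto1 and Mgst3 stayed higher and past the threshold under all 8 alternatives and in each of 12 fits without 1 mouse. The number of members called was 5 to 6 with a mouse left out and 5 to 7 otherwise, and the number of all genes called was 1176 to 1826 and 1439 to 2393. Gstt1 passed with DESeq2 (FDR = 0.0306), and Mgst1 with DESeq2 (FDR = 0.0341), with a surrogate variable (FDR = 0.0323) and without control replicate 5. Without control replicate 5, the log2 fold changes of Gstk1 and Gstz1 turned to 0.0091 and 0.0014, and their ranges with a mouse left out were -0.098 to 0.0091 and -0.074 to 0.0014. With a mouse left out, the difference in log2 ratio ran from 0.44 to 0.91 for Gstp1 over Gstp2 (0.47 with primary alignments), 0.31 to 0.47 for Gstt2 over Gstt1, -0.80 to -0.57 for Gstt2 over Gstt3 and 0.25 to 0.42 for Mgst3 over Mgst1, and each passed an adjusted p of 0.05 without the mice named beside it above. No paired analysis was made, since the study randomized mice to the diets and the labels name no pairs. Depth limits Gstp2, with 6 to 28 counts per mouse.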
